A study of Mus musculus with 3 samples.

Results

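The genes Adcy5, Pde10a, Pde1b and Ppp1r1b encode 4 proteins that make, break down or relay cyclic AMP (cAMP) in the neurons of the striatum, and their loci are described here in maps of the retinoic acid receptor beta (RARβ) and of trimethylated lysine 4 of histone H3 (H3K4me3). The loci were chosen by a broad H3K4me3 peak and by RARβ peaks near it, seen in these same maps, so those values are given as a description and no test was made on them. For each gene every peak was taken that overlapped a fixed window of the mouse genome build mm9: chromosome 17, 8980000 to 9180000, for Pde10a; chromosome 15, 103325000 to 103365000, for Pde1b; chromosome 16, 35145000 to 35310000, for Adcy5; and chromosome 11, 98200000 to 98225000, for Ppp1r1b. The windows held 36 of the 8075 RARβ peaks and 27 of the 35971 H3K4me3 peaks.

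The maps were made by chromatin immunoprecipitation and sequencing (ChIP-seq) from the caudate putamen (dorsal striatum), with 1 library per antibody. All libraries came from male mice of wild-type genotype, strain C57BL/6J x 129SvEms/j, a mixed background, with no treatment named. Their parents were heterozygous for the RARβ mutation, and no library of a RARβ-null littermate enters the values here. A further library, made with an antibody against GFP, was not analysed here. The mice's age and the number of mice behind a library are not given in the sources used here. After removal of redundant tags (a tag is 1 aligned read), the RARβ library held 2237580 tags and the H3K4me3 library 47461843, 21.2 times as many, so the weakest site that each list can show differs between them. The removal took 55.2% of the RARβ tags, against 21.4% of the H3K4me3 tags and 31.5% of those of the control used in peak calling. The tissue mixes many cell types, and more cells that carry a mark cannot be told apart from more of the mark per cell. The tissue label was not checked against marker loci of other cell types.

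Cyclic AMP is the messenger through which dopamine and adenosine receptors act on the medium spiny neurons, the main neurons of the striatum. Adcy5 encodes adenylyl cyclase 5, the main enzyme that makes cAMP in these neurons. Pde10a encodes a phosphodiesterase that breaks down cAMP and cGMP and is very abundant in medium spiny neurons, and Pde1b encodes a phosphodiesterase that is switched on by calcium and calmodulin. Ppp1r1b encodes DARPP-32, which becomes an inhibitor of protein phosphatase 1 when the cAMP-dependent kinase phosphorylates it. H3K4me3 marks active promoters and usually covers a short stretch around a gene start; very broad stretches of it are known from genes that define a cell's identity. RARβ pairs with a retinoid X receptor, sits classically on direct repeats of AGGTCA, and turns target genes up or down depending on retinoic acid.

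In RefSeq's table of build GRCm38.p6, the protein-coding neighbours of Pde10a are T and 1700010I14Rik, and those of Pde1b are Nckap1l and Ppp1r1a. Those of Adcy5 are Hacd2 and Sec22a, and those of Ppp1r1b are Gm33099 and Stard3. Long non-coding RNA or pseudogene entries also overlap these genes, 6 at Pde10a, 2 at Adcy5 and 1 at Ppp1r1b (1700003D09Rik), with none at Pde1b. Gene starts and exons on mm9 were not used here, so which gene part a peak lies in is not stated. RefSeq promoter entries matched 3 of the 4 genes (Pde10a, Pde1b and Adcy5), with 6 annotated starts in all. The 250 bases before the first listed start of each are shown because a broad H3K4me3 domain lay at each of these loci and CpG-rich promoters commonly carry this mark. Capitals mark CpG dinucleotides, and all are on the + strand. Their positions, on GRCm38.p6, are chr17:8801495-8801744 for Pde10a, chr15:103502784-103503033 for Pde1b and chr16:35154614-35154863 for Adcy5, and cannot be set beside the mm9 positions of the peaks.
Pde10a: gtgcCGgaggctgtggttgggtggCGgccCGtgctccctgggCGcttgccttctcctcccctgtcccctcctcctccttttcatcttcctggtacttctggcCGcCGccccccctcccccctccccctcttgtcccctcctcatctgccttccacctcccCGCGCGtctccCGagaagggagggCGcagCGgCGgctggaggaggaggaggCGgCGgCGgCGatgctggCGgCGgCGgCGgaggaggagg
Pde1b: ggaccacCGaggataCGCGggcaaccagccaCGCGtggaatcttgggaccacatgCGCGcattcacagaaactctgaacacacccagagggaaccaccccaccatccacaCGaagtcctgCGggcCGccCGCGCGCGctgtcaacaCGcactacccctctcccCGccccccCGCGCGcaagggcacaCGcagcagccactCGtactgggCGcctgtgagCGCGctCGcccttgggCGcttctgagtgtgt
Adcy5: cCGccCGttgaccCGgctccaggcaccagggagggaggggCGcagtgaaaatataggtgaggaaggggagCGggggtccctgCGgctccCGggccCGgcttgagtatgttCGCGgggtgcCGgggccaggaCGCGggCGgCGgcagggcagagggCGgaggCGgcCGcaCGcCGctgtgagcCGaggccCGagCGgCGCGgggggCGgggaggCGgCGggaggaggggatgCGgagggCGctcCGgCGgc
These stretches held 21 CpG for Pde10a, 26 for Pde1b and 32 for Adcy5, against a median of 6 over the 32851 promoters of the table. Their GC content was 72.8% for Pde10a, 67.2% for Pde1b and 78% for Adcy5, against a median of 52.4%. The later annotated starts were poorer in CpG, with 4 before the second start of Pde10a and 0 and 1 before the other 2 starts of Pde1b. The second Pde10a start, at chr17:8849735-8849984 on GRCm38.p6 (+ strand), is shown for that contrast.
Pde10a second start: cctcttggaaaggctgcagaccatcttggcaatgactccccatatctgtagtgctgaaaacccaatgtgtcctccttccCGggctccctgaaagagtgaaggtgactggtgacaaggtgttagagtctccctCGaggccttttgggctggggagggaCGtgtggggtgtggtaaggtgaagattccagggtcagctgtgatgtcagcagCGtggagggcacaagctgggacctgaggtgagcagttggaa
The AGGTCA and AGTTCA forms of the receptor's core motif were searched on both strands from 250 bases before to 50 after each of the 6 starts. Neither occurred in any of the 6, while AGGTCA occurred in 16.3% and AGTTCA in 14.0% of all promoters in the table. Direct repeats of AGGTCA with 1, 2 or 5 bases between the copies overlap that search and were also not in these windows; they occurred in 0.0396%, 0.00913% and 0.00913% of all promoters. The cAMP response element, TGACGTCA, and its core TGACG, which lies within it, were likewise not in these 6 windows, against 1.79% and 20.8% of all promoters. These letters were looked for only in these windows, and the RARβ peaks themselves were not searched. Other forms of the receptor's core motif were not searched, so their absence is not shown. The form GGGTCA can be read in the stretch before the second Pde10a start. Its reverse complement, TGACCC, can be read in the Adcy5 stretch.

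Each window held 1 H3K4me3 peak far wider than the rest, called its domain below. The Pde10a domain, at 8991315 to 9069783 of chromosome 17, was 78.5 kb wide and held 21137 tags (exact Poisson 95% interval 20853 to 21424, which covers counting error only). It ranked first of the 35971 H3K4me3 peaks by width and first by tags. The next widest peak of the list, at 109207018 to 109245146 of chromosome 12, was 38.1 kb wide, so the Pde10a domain was 2.06 times as wide as any other. By itself it took up 0.0445% of all filtered H3K4me3 tags of the library.

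The Adcy5 domain, at 35152624 to 35188755 of chromosome 16, was 36.1 kb wide with 12111 tags (11896 to 12329), which placed it at rank 3 by width and rank 5 by tags. The peak just above it in width is the one on chromosome 12 named before, and the one just below, at 119796393 to 119824048 of chromosome 11, was 27.7 kb wide with 8998 tags. The Pde1b domain, at 103331496 to 103355012 of chromosome 15, was 23.5 kb wide with 7288 tags (7122 to 7457), at rank 9 by width and 21 by tags. Its neighbours in width order, at 24.4 kb on chromosome 13 and 22.7 kb on chromosome 5, had more tags, 12894 and 9811. The Ppp1r1b domain, at 98206282 to 98223137 of chromosome 11, was 16.9 kb wide with 6694 tags (6535 to 6856), at rank 33 by width and 34 by tags. Its width differed from that of its neighbours in the order, 16926 and 16550 bp, by at most 306 bp. Against the median H3K4me3 peak of 1679 bp and 206 tags, the domains were 10.0 (Ppp1r1b) to 46.7 (Pde10a) times as wide and held 32.5 to 103 times as many tags.

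**Figure D1:**
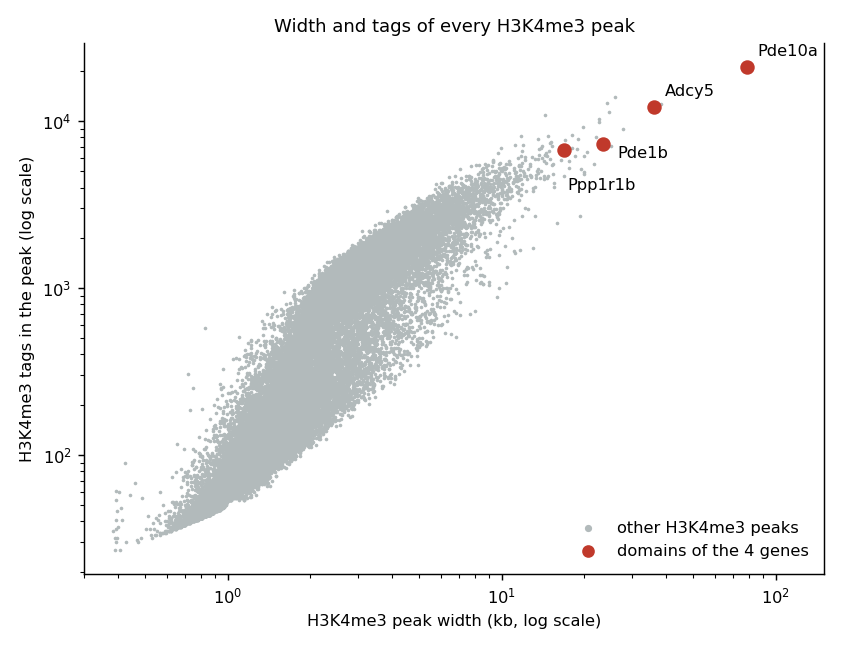
Width (kb) and tags of every H3K4me3 peak, both on log scales; each grey point is 1 peak and the red points are the domains of the 4 genes. The Pde10a domain lies at the far end of both axes at 78.5 kb and 21137 tags, and the other 3 lie in the upper right among the widest peaks.

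The domains stood out by breadth and much less by density of the mark. Per kb of width, the Pde10a domain held 269 tags, the Pde1b domain 310, the Adcy5 domain 335 and the Ppp1r1b domain 397, so the widest domain was the least dense and the narrowest the densest of the 4. Ranked by tags per kb, the domains of Pde10a, Pde1b, Adcy5 and Ppp1r1b had ranks 11519, 10247, 9470 and 6920 among all H3K4me3 peaks, and 68.0% to 80.8% of the peaks were less dense. The 29 other H3K4me3 peaks at least as wide as the Ppp1r1b domain had 139 to 538 tags per kb with a median of 359, a range that takes in all 4. Fold enrichment, the caller's ratio of the summit's pileup over the tags its local background model gives there, was 49.16 at Adcy5, 34.98 at Pde10a, 23.9 at Ppp1r1b and 13.72 at Pde1b. The value of Adcy5 was higher than that of 97.4% of all H3K4me3 peaks, and that of Pde1b higher than that of 58.5%. The 4 domains shared the caller's capped score of 3100 and an empirical FDR of 3.36%, so neither orders them.

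The mark was strongest near 1 edge of each domain. The summit, the position of the highest tag pileup, lay 3.60 kb above the lower edge at Pde10a, 2.33 kb at Pde1b, 3.57 kb at Adcy5 and 3.98 kb at Ppp1r1b. As a share of the width this is 4.59%, 9.92%, 9.88% and 23.6%, in each case in the lowest 25% of the domain. Among all H3K4me3 peaks, 6.48% had their summit in the outer 25% at either end. Among the 29 other peaks at least as wide as the Ppp1r1b domain, it was 18 (62.1%), of which 9 had it at the lower and 9 at the upper end. A summit near an edge was therefore common among peaks this wide. RefSeq lists Pde10a, Pde1b and Adcy5 on the + strand, on which transcription runs towards higher coordinates.

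Beyond the domain, the windows of Pde10a and Adcy5 held a chain of weaker H3K4me3 peaks on the higher side and that of Pde1b held none. At Pde10a there were 7, the nearest 1253 bp beyond the domain at 9071037 to 9082192 with 1630 tags, then 9083356 to 9093121 with 1569 tags. These first peaks had 146 and 161 tags per kb, and the other 5 had 65.7 to 81.5. At Adcy5 there were 14 further peaks, 1134 to 6211 bp wide, which together covered 35.4 kb, nearly as much as the domain itself. Their density was lower and even, at 53.8 to 86.5 tags per kb, and their fold enrichment was 2.58 to 6.9. All 14, and 6 of the 7 at Pde10a, had an FDR above 5%, as did 23398 of the 35971 H3K4me3 peaks of the list. At Ppp1r1b the 2 further peaks lay on the lower side, at 98199181 to 98201339 and at 98203145 to 98204906, with 320 and 309 tags per kb and FDRs of 4.53% and 3.61%. The domain held 82.6% of the H3K4me3 tags in peaks at Pde10a, 81.9% at Adcy5, 84.4% at Ppp1r1b and 100% at Pde1b. These shares and the further peaks depend on the windows' limits, which left unequal room above the domains. The Ppp1r1b domain ended at 98223137 and its window at 98225000, and the Pde1b domain at 103355012 and its window at 103365000. The windows of Pde10a and Adcy5 reached much further beyond their domains.

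**Figure D2:**
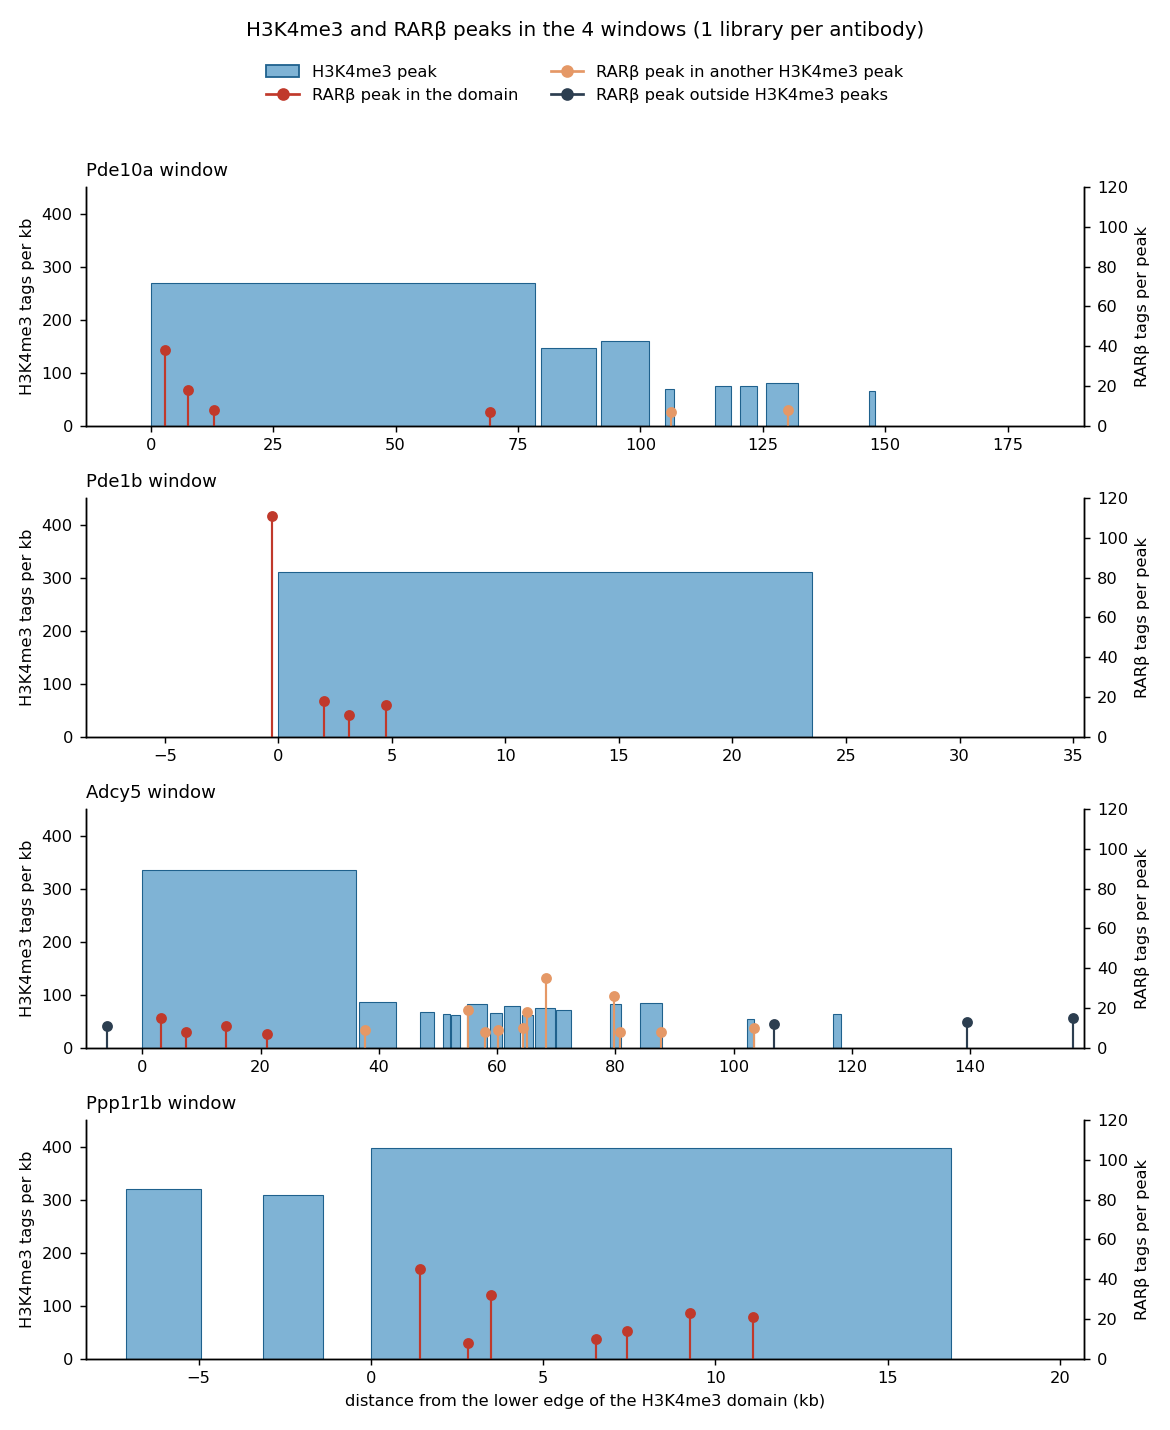
H3K4me3 and RARβ peaks in each window against the distance from the lower edge of the H3K4me3 domain (kb). Blue boxes are H3K4me3 peaks, drawn to width with their mean tags per kb as height (left axis), and pins are RARβ summits with the tags of the peak as height (right axis). In the Pde1b, Pde10a and Ppp1r1b windows the tallest pin is the first from the lower edge of the domain (111, 38 and 45 tags), and in the Adcy5 window it stands 68.3 kb above that edge (35 tags).

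All 4 domains held RARβ peaks: 4 each at Pde10a, Pde1b and Adcy5, and 7 at Ppp1r1b. A RARβ peak was present in 13.1% of all H3K4me3 peaks and in 78.8% of the 33 that were at least as wide as the Ppp1r1b domain, which include the 4 domains. Of the 29 others, 22 held one, so the presence of RARβ in the domains is near the background of peaks of their width. No H3K4me3 peak of the list held more than 7 RARβ peaks, and 2 held 7. The other, at 17683310 to 17699859 of chromosome 3, is the next peak below the Ppp1r1b domain in width, at 16550 bp. Among the 29 other peaks at least as wide as the Ppp1r1b domain, the number was 0 to 6 with a median of 2, and 6 of them held 4 or more. With RARβ peaks joined across gaps of at most 216 bp, the fragment length of the library, the Ppp1r1b domain held 6 and the Pde1b domain 3. The domains of Pde10a and Adcy5 stayed at 4. Joined numbers for the other H3K4me3 peaks are not given here, so the place of Ppp1r1b among them rests on the peaks as called.

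The loci were chosen with their RARβ peaks known, so the numbers per length are a description. RARβ summits numbered 415 per Mb in the Ppp1r1b domain (7 summits, exact Poisson 95% interval 167 to 856), 128 in the Pde1b domain (3 summits, 26.3 to 373), 111 in the Adcy5 domain (4 summits, 30.2 to 283) and 51.0 in the Pde10a domain (4 summits, 13.9 to 131). All H3K4me3 peaks together held 63.0 per Mb (61.3 to 64.7). The intervals cover counting error only and overlapped between neighbours in this order. With RARβ peaks of at least 10 tags, the density was 25.5 per Mb at Pde10a and 55.4 at Adcy5, 2 summits each, so both values rest on few peaks of low counts. Only 51.8% of all RARβ peaks reach 10 tags, and a background density at that cut is not given here. With all RARβ peaks counted, the density among the 29 other wide peaks was 0 to 230 per Mb with a median of 105. On that count the value at Pde10a, 51.0, was below the median, which lay within its counting interval. The value at Ppp1r1b, 415, was above the highest of the 29.

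**Figure D3:**
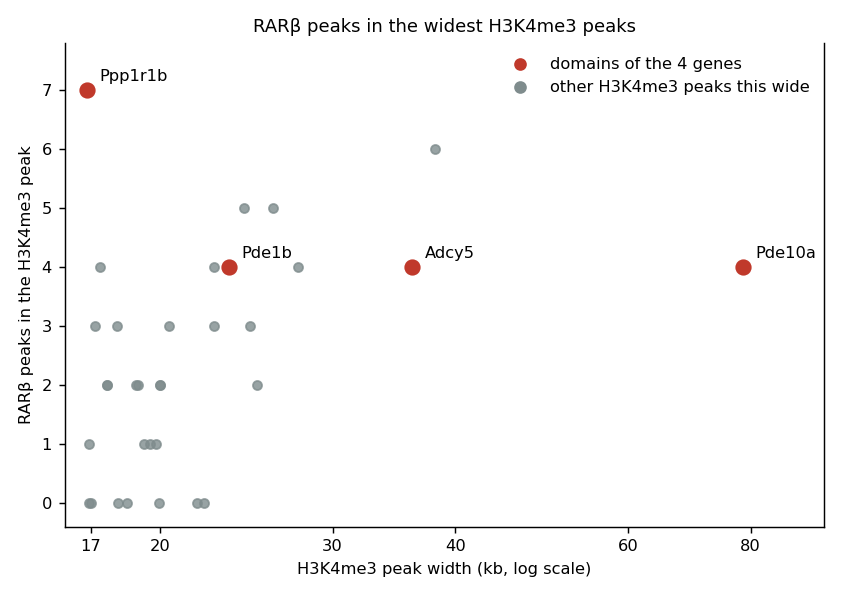
Number of RARβ peaks in each of the 33 H3K4me3 peaks of at least 16856 bp, against the width of the H3K4me3 peak (kb, log scale); red points are the domains of the 4 genes and grey points the 29 others. The Ppp1r1b domain, the narrowest, holds the most RARβ peaks (7), and the Pde10a domain, the widest, holds 4.

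Adcy5, the source of cAMP, had the most RARβ peaks of the 4 windows, and most lay outside its domain. The windows differ in length, and per Mb of window there were 280 RARβ summits at Ppp1r1b, 109 at Adcy5, 100 at Pde1b and 30.0 at Pde10a. Of the 19 peaks at Adcy5, 4 lay in the domain, 11 in the weaker H3K4me3 peaks beyond it and 4 outside any H3K4me3 peak. The 4 in the domain had 15, 8, 11 and 7 tags, with summits 3.08, 7.38, 14.1 and 21.1 kb above its lower edge. Only the first of these was close to the H3K4me3 summit, 495 bp below it. The peak with the most tags of the window lay 68.3 kb above the edge, at 35220499 to 35221271, in an H3K4me3 peak that was enriched 4.94-fold at an FDR of 19.06%. It had 35 RARβ tags (24.4 to 48.7) and a RARβ fold enrichment of 77.38, at rank 53 of the 8075 RARβ peaks by fold and 143 by tags. Next came a peak of 26 tags at 35231700 to 35232982, 1 of 19 tags at 35206835 to 35207968 and 1 of 18 tags at 35217295 to 35218135. The other 7 in weaker H3K4me3 peaks had 8 to 10 tags.

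The weaker H3K4me3 peaks of the Adcy5 window often held RARβ. Of the 14, 9 did, where 8.09% of all H3K4me3 peaks with an FDR above 5% held a RARβ peak; the locus was chosen with its RARβ peaks known, so the share is a description. The 4 peaks outside the mark had 11, 12, 13 and 15 tags. They lay 5.755 kb below the domain and, on the higher side, 3.194, 20.975 and 38.847 kb from the nearest H3K4me3 peak, with fold enrichments of 19.35 to 38.69. As a whole, 15 of the 19 peaks overlapped H3K4me3, beside 64.9% of all RARβ peaks. With the last peak's summit just past its upper end, the window held 18 RARβ summits. No stretch of the same length that began at a RARβ summit and lay clear of the window held as many, and the highest number elsewhere was 16, between 99334436 and 99473512 of chromosome 6. Several peaks of the window were nearly contiguous, with gaps of 32 and 44 bp. When peaks separated by at most 216 bp, the fragment length of the library, were joined, the window held 16 summits and the highest number elsewhere was 14. That alternative was chosen after the peaks had been seen.

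Pde10a, which degrades cAMP, had 4 RARβ peaks in its domain, 3 of them towards the lower edge and 1 near the upper. They had 38, 18, 8 and 7 tags. Their summits lay 2.93, 7.61, 12.9 and 69.3 kb above the edge, so the first 3 summits fell in the lowest 16.4% of the width, and a stretch of 55.815 kb without any RARβ peak lay between the third peak and the last. The peak of 38 tags (26.9 to 52.2), at 8993035 to 8995117, had rank 106 of all RARβ peaks by tags, and its summit lay 673 bp below the H3K4me3 summit. Beyond the domain, 2 peaks of 7 and 8 tags lay in weaker H3K4me3 peaks, 106 and 130 kb above the edge. Both counts are near the list's minimum of 7 tags, below which a site was not detectable at this depth.

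Pde1b, the calcium-dependent phosphodiesterase, had the RARβ peak with the most tags of the 4 windows. At 103330432 to 103332371, it held 111 tags (91.3 to 134), rank 5 of all RARβ peaks, with a fold enrichment of 68.97, rank 87. By the caller's score it had rank 4. Its empirical FDR was 25%, between the 33.33% and 20% of the peaks next above and below it by score. In the 4 windows, the peaks at ranks 55, 85 and 221 by score had FDRs of 1.82%, 1.18% and 0.45%. Among these strongest peaks a higher FDR thus went with a higher score. Its summit lay 270 bp below the lower edge of the H3K4me3 domain and 2604 bp below the H3K4me3 summit, while the peak's upper part overlapped the domain. The other 3 peaks had 18, 11 and 16 tags and summits 2.00, 3.11 and 4.74 kb above the edge. The first of them lay 334 bp below the H3K4me3 summit. All 4 peaks spanned 6.27 kb, and the upper 79.8% of the domain, above the last summit, held no further RARβ summit.

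Ppp1r1b, which relays the cAMP signal to protein phosphatase 1, had a run of 7 RARβ peaks over 11.6 kb. In order from the lower edge they had 45, 8, 32, 10, 14, 23 and 21 tags, with summits at 1.44, 2.82, 3.49, 6.55, 7.43, 9.27 and 11.1 kb. The gaps between neighbouring peaks ran from 22 to 2296 bp. The strongest, at 98206406 to 98208290, had 45 tags (32.8 to 60.2) and a fold enrichment of 60.66, rank 50 by tags and 158 by fold. Next by tags was the peak of 32 at 98209310 to 98210337, whose summit lay 483 bp below that of H3K4me3. The fold enrichment of the other 5 was 11.49 to 15.78, below the list's median of 19.35, also where they had 21 or 23 tags. The 34.2% of the domain above the last summit held no further RARβ summit.

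Over the 4 domains together, 12 of the 19 RARβ peaks had their summit in the lowest 25% of the width or just below the edge, where the H3K4me3 summits also lay. The domains were unlike in this: it was 4 of 4 at Pde1b, 3 of 4 at Pde10a, 2 of 4 at Adcy5 and 3 of 7 at Ppp1r1b. The next 25% held 3, the next 3 and the highest 25% held 1. Of the 421 RARβ tags, 328 were in the lowest 25% or just below the edge. The Pde1b peak whose summit lies outside the domain gave 111 of them, and without it the lowest 25% held 217 of 310. In the 29 other wide peaks, counted from the end nearer the H3K4me3 summit, 25 of 61 RARβ peaks lay in or just beyond the first 25%, and 14, 12 and 10 in the next parts.

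**Figure D4:**
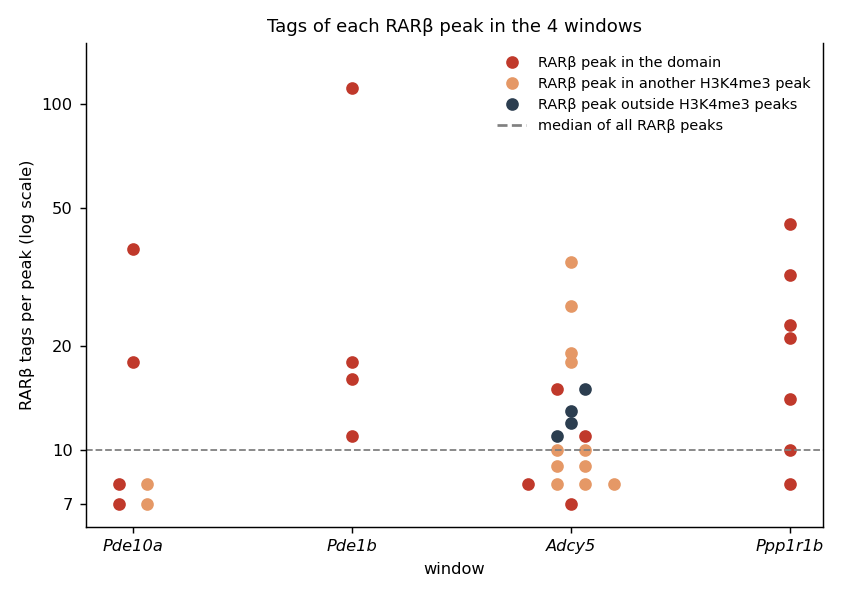
Tags of each RARβ peak (log scale) in the 4 windows; colours give the peak's place, and the dashed line is the median of all 8075 RARβ peaks, 10 tags. The Pde1b peak of 111 tags stands above all others, every Pde1b peak is above the line, and the Adcy5 window holds the most peaks, at 7 to 35 tags.

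Taking all 36 RARβ peaks, the tags ran from 7 to 111 with a median of 11.5, against 10 in the whole list. At least 10 tags were found in 24 of the 36 (66.7%), beside 51.8% of all RARβ peaks, and at least 30 tags in 5, beside 3.33% of all. The lowest count of the list, 7 tags, was that of 3 of the 36, beside 21.8% of all. The median per window was 21 tags at Ppp1r1b, 17 at Pde1b, 11 at Adcy5 and 8 at Pde10a. Summed tags in the domain were 156 (132 to 182) at Pde1b and 153 (130 to 179) at Ppp1r1b, with overlapping intervals, 71 (55.5 to 89.6) at Pde10a and 41 (29.4 to 55.6) at Adcy5. Of the 156 at Pde1b, 111 came from the peak whose summit lies below the domain's edge. The 3 Pde1b peaks with summits inside held 45 tags, fewer than the 71 at Pde10a. The Adcy5 and Pde10a intervals overlapped only at their ends. Over the whole window Adcy5 came first with 252 tags, ahead of Pde1b with 156, Ppp1r1b with 153 and Pde10a with 86. The order of the loci by RARβ tags thus depends on whether the domain or the window is counted. For the domains it also depends on whether the Pde1b peak of 111 tags is included.

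The windows' limits decided a few peaks. At Adcy5 the peak of 15 tags at 35309706 to 35310305 crosses the upper limit and was counted, and at Ppp1r1b an H3K4me3 peak of 691 tags crosses the lower limit. Just outside lay a strong H3K4me3 peak 0.529 kb above the Pde1b window, at 103365529 to 103369849, with 1635 tags and a RARβ peak of 14 tags at 103367398 to 103368446. A RARβ peak of 9 tags lay 3.71 kb below the Ppp1r1b window, and at Pde10a the nearest H3K4me3 peak outside, 0.751 kb above the window, had 159 tags.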

How the data were processed

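ChIP-seq was done on caudate putamen tissue of male wild-type mice with antibodies against RARβ, H3K4me3 and GFP, 1 library each, and the deposited peak lists of RARβ and H3K4me3 were used. The submitters' processing notes name CASAVA 1.8.2, Bowtie, MACS 1.4.2 and build mm9. Per the file headers, peaks were called on each library alone against the same control (3703580 filtered tags), at a p cutoff of 1.00e-05, with at most 1 tag kept per position; the control was scaled down to RARβ and scaled up to H3K4me3, whose library held 12.8 times as many filtered tags. The antibody behind the control is not given in the headers. The authors deposited tag counts per peak without normalization, fold enrichment as a ratio, an FDR in percent, and a score, a multiple of the negative log10 of p, whose header cell is damaged and which was identified by its place among the columns MACS writes.

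The members, lists and alternatives were chosen with earlier results of these data known. Peaks shared at least 1 bp to count as overlapping, coordinates count from 1, and the rank of a peak is 1 more than the number of peaks with a higher value. The widest H3K4me3 peak of a window is its domain. The rule for named peaks took every RARβ peak of a window, the domain, the peaks next to it in width order and the nearest peaks outside the window. With 1 library per antibody no test was made and no value has a replicate error. Exact Poisson 95% intervals reflect counting error alone; the libraries were PCR-amplified without molecular identifiers. Overlap, joining and ranking were tested on simulated intervals. An annotation of mm9 was not used, so other genes of the pathway were not placed. Python 3.11.15, numpy 2.4.6, pandas 2.3.3, scipy 1.17.1 and matplotlib 3.10.9 were used.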

Additional observations from a re-analysis of the deposited data

How the results depend on the processing

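Of 60 alternatives, 52 were planned and 8, which joined RARβ peaks across gaps of at most 216 bp, were chosen after seeing the data; 48 stayed within 1.5 times the main rank or number, or within the 95% interval of a density, and 12 did not. Ranked by tags per kb in place of tags, Pde10a moved from 1 to 11519, Adcy5 from 5 to 9470, Pde1b from 21 to 10247 and Ppp1r1b from 34 to 6920. With H3K4me3 peaks joined across gaps of at most 1 kb, the rank by width went from 9 to 14 at Pde1b and from 33 to 51 at Ppp1r1b. Across gaps of at most 3 kb it went to 34 at Pde1b and to 15 at Ppp1r1b, whose rank by tags went from 34 to 17; by width Pde10a stayed at rank 1 and Adcy5 at rank 3 under both. With RARβ peaks of at least 10 tags, 2 of 4 were left in the Pde10a domain and 2 of 4 in the Adcy5 domain. The density of summits then went from 51.0 to 25.5 per Mb at Pde10a and from 111 to 55.4 at Adcy5, and over the whole window it was 30.0 at Pde10a; these moved by over 1.5 times but stayed within the wide counting intervals and are among the 48. With any H3K4me3 peak of the window in place of the domain, Adcy5 had 15 RARβ peaks. No paired analysis was possible because each antibody has 1 library and no test was made. At 7 tags or fewer RARβ sites were at or below the limit of the list, so a domain stretch without RARβ peaks may hold weaker sites.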

Other observations

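RARβ peaks near Adcy5 were not limited to the window described. The densest stretch of 200 kb in the genome, among those started at a RARβ summit outside the Pde10a window, ran from a summit at 35067357 to one at 35259490 of chromosome 16 and held 24 summits. With RARβ peaks joined across gaps of at most 216 bp, the highest number in such a stretch was 22. It starts below the Adcy5 window and ends inside it. The Pde10a window, of the same length, held 6, and 223 other separate stretches of 200 kb held at least as many. The Pde1b window held 4 summits, and 185 other stretches of its length held at least as many, up to 9. For the 7 summits of the Ppp1r1b window, 9 other stretches of its length held at least as many, up to 8.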
